A study of Petromyzon marinus with 10 samples.

Results

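Isolated single-exon loci are assembled transcripts of the lamprey brainstem that were built from a single exon record and lay far from any other locus. A locus was included when it had exactly 1 exon record, a mean raw count of at least 10 over the 10 libraries, and no other locus of either strand overlapping it or lying within 5000 bp on the same scaffold. All these criteria were met by 705 of the 57134 listed loci. Of all loci, 22587 had 1 exon record. Of these, 3315 were isolated at any count, and 21.3% of them reached the count minimum. Among single-exon loci with a neighbour inside that distance, 5000 of 19272 (25.9%) reached it.

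In an assembly made from aligned reads, a transcript without a splice junction can belong to one of several kinds. It can be an intronless gene, an unspliced noncoding RNA, the end of a longer gene whose other exons were not joined to it, or an unspliced remnant of a precursor. Intronless protein-coding genes are known in vertebrates, histone genes and many receptor genes among them. Long noncoding RNAs encoded between genes are as a class known for low levels and few exons. The count table gives positions, lengths and strands but no gene names or sequence, so none of the isolated single-exon loci could be assigned to one of these kinds.

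The libraries came from brainstems of larval sea lampreys (Petromyzon marinus) taken from the river Ulla in Spain, aged 5 to 7 years. All animals, controls included, had received a complete transection of the spinal cord. In 5 libraries the larvae had been treated with baclofen, an agonist of the GABAB receptor, and in the other 5 they were untreated controls. Each library was a pool of several brainstems, so the spread between libraries is a spread between pools and not between single animals. The series text places both groups 29 days after injury. The study's methods give that day for its GABA experiment and an earlier one for baclofen and its controls. Either source gives both groups the same day, and the day entered no calculation here. The study asked which genes respond to the treatment in the injured brainstem, and here that question was put to the isolated single-exon loci.

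Total counts per library ranged from 12774386 in control 3 to 19566056 in baclofen 5. Neural transcripts were abundant in every library, with normalised counts (raw counts divided by the library's size factor) of 13201 to 16011 for CPLX1, a complexin of the synapse, 1086 to 1579 for the GABAA receptor subunit GABRA5, and 1980 to 2552 for the neuropeptide precursor CARTPT. Loci of blood and immune cells were also present, with 182 to 376 normalised counts for PTPRC (the leukocyte antigen CD45), 118 to 213 for TLR2, 372 to 809 for the lymphocyte receptor VLRA, 28.0 to 129 for CD62L and 18.9 to 92.5 for Pema-SRCR. All 5 immune loci differed between the groups in the comparison across all loci (adjusted p under 0.05, DESeq2), PTPRC and TLR2 being higher and VLRA, CD62L and Pema-SRCR lower with baclofen. CPLX1 was also higher (log2 fold change 0.17, adjusted p = 0.0397), with 14419 to 16011 against 13201 to 14254. GABRA5 and CARTPT did not pass in these libraries (DESeq2 adjusted p = 0.989 and 0.998). All these loci come from the study's lists of differentially expressed genes, which cover its GABA and its baclofen experiment. Loci on the baclofen list had been called with DESeq2 from these same libraries. That they passed again follows from this choice and does not describe immune or neural loci in general. The part of all these loci in the values below was not tested. Of the controls, control 1 agreed least with the others locus by locus. It also stood apart in the share of counts taken by single-exon loci, as described further on.

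The isolated single-exon loci were spread over 596 of the 6286 scaffolds in the table. On 541 of these scaffolds there was 1 such locus, and no scaffold held more than 6. The strands were used about equally, with 358 loci on the plus and 347 on the minus strand.

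Isolation had different meanings on different scaffolds. For 353 loci (50.1%) no other locus was listed on the scaffold at all. A further 181 (25.7%) were the first or last locus of their scaffold, and only 171 (24.3%) had listed loci on both sides. Only for these 171 loci do the positions show a place between other transcribed loci. Among isolated loci with 2 or more exon records, the share alone on the scaffold was similar at 49.0%, while 36.5% had loci on both sides.

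The loci that were alone on a scaffold ended at a median position of 4695, with a range of 216 to 27757. Scaffold lengths are not in the table, so the distance to the scaffold's end is unknown. Of all 705 loci, 52 began at the very first base of the scaffold and 76 within the first 100 bases. For 35 of those 52 the locus was the only one of its scaffold.

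The 171 loci with neighbours on both sides were 5063 to 302118 bp from the nearer one, with a median of 9400 bp. The median distance between the loci that flanked them was 42604 bp. For all 352 loci with any neighbour, the nearest one was on the same strand in 195 cases (55.4%) and on the opposite strand in 157. On the same strand the isolated locus was downstream of its neighbour in 97 cases and upstream in 98. Most of these neighbours were minor loci themselves, 211 having a single exon record and 221 being below the count minimum.

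Moving the distance limit changed the number of loci but not its order of magnitude, with 506 isolated at 10000 bp and 409 at 20000 bp. Just inside the limit were MSTRG.53460, 5022 bp from its neighbour with 18.5 normalised counts on average, and MSTRG.41803 at 5063 bp with 14.3. Just outside were MSTRG.12338 at 4976 bp with 10.4 normalised counts and MSTRG.10166 at 4960 bp with 14.3. The mean raw count was 10 at the lowest locus included and 9.9 at the highest left out. Within 0.5 raw counts of this limit were 38 loci inside and 28 otherwise eligible loci outside.

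The isolated single-exon loci were between 200 and 8369 bp long, with a median of 1192 bp and quartiles of 561 and 2476 bp. Single-exon loci with a neighbour had nearly the same median, 1200 bp. Isolated loci with 2 or more exon records had a median summed exon length of 1511 bp, and the other multi-exon loci 2610.5 bp. By position, the median length was 1074 bp on scaffolds without another locus, 1415 bp for outermost loci and 1052 bp for those with loci on both sides.

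Their levels were low. The mean normalised count per locus had a median of 22.4 and quartiles of 13.5 and 51.5, and it exceeded 100 at 75 loci and 200 at 29. Per kb of exon the median was 22.9 normalised counts, with quartiles of 13.8 and 40.9 and a range of 3.05 to 1326. The 93 loci under 400 bp had a median of 47.1 normalised counts per kb and the 273 loci of 1600 bp or more one of 15.2. The count minimum accounts for part of this slope, since it demands more counts per kb from a short locus, as the dashed line in the plot of level against length shows. Nearly all the loci were detected in every library, which the count minimum itself favours. Only 2 of the 705 had a count of 0 in some library.

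**Figure D1:**
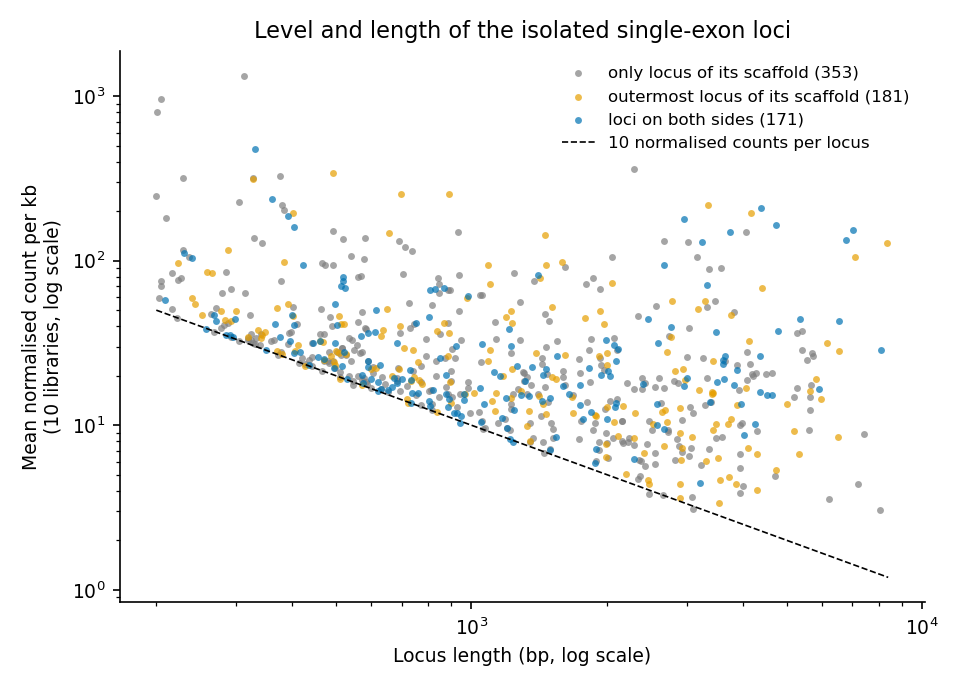
Mean normalised count per kb over the 10 libraries (y axis, log scale) against locus length in bp (x axis, log scale) for the 705 isolated single-exon loci, 1 point each, coloured by position on the scaffold. The dashed line marks 10 normalised counts per locus, below which few points can lie, and the 3 highest levels per kb, 797 to 1326, belong to loci of 201 to 313 bp.

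Within each library the isolated single-exon loci were compared with 3 other classes under the same count minimum, using the class median of the normalised count per kb. Their median was 21.3 to 23.6, against 23.1 to 25.7 for the 5000 single-exon loci with a neighbour. The log2 difference was -0.12 ± 0.03 (SD, n = 10 libraries) and the isolated class was lower in 10 of 10 libraries (two-sided exact sign-flip permutation test, p = 0.00195, adjusted p = 0.0026 over 4 comparisons). With a minimum of 50 mean raw counts in both classes this difference was -0.34 (exact permutation p = 0.00195). The distance to the multi-exon classes was larger. Against the 1134 isolated loci with 2 or more exon records, whose medians were 45.6 to 49.5, the log2 difference was -1.10 ± 0.07 (SD, n = 10, exact permutation p = 0.00195). Against the other 20340 multi-exon loci, with medians of 62.8 to 64.7, it was -1.52 ± 0.05 (SD, n = 10, exact permutation p = 0.00195). In both comparisons the isolated single-exon class was lower in 10 of 10 libraries, and 0.00195 is the smallest p that 10 libraries allow. The same loci were measured in every library, so these p-values concern how steadily a gap repeats between libraries. They do not concern whether it would hold for other loci. Level is also what the count minimum was set on, and the gap to the other single-exon loci moved with that minimum.

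No difference in level by position on the scaffold was resolved. The median per kb was 23.3 for loci alone on a scaffold, 22.9 for outermost loci and 22.2 for loci with neighbours on both sides. Within libraries, those with loci on both sides differed from those alone on a scaffold by 0.01 ± 0.05 on the log2 scale (SD, n = 10, lower in 4 of 10 libraries, exact permutation p = 0.67).

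A few loci held a large part of the signal. In each library the 10 highest loci took 20.4% to 23.0% of all counts of the isolated single-exon class. The locus with the highest mean was MSTRG.13958 on scaffold PIZI01000019.1 (3379166 to 3386176, plus strand, 7011 bp), which had loci on both sides, the nearer 19194 bp away. Its normalised counts were 1022, 1070, 1114, 1071 and 1073 in baclofen 1 to 5 and 1185, 1141, 976, 1110 and 1022 in control 1 to 5. The groups overlapped throughout, and it was among the 2 least variable loci of the class, with an SD of 0.09 on the log2 scale within groups.

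The locus with the smallest spread, MSTRG.54977 (PIZI01008209.1, 834 to 6231, minus strand, 5398 bp, SD 0.08), was the only locus of its scaffold. It had 197, 199, 214, 195 and 217 normalised counts with baclofen and 188, 203, 214, 192 and 187 in the controls. No library was apart from the others.

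The longest locus, MSTRG.43040 (PIZI01000420.1, 51515 to 59883, plus strand, 8369 bp), was also the one with the second highest mean, 1064 normalised counts. The next longest were less abundant. MSTRG.31884 (PIZI01000058.1, 4551023 to 4559133, minus strand, 8111 bp, loci on both sides) had a mean of 233 normalised counts. MSTRG.48786 (PIZI01002773.1, 169 to 7596, plus strand, 7428 bp) had 65.8. MSTRG.54368 (PIZI01007411.1, 2 to 8057, plus strand, 8056 bp) had 24.5, and its 3.05 per kb was the lowest level of the class. Both of the last were alone on their scaffolds and began close to the first base.

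Per kb, the highest levels belonged to short loci. The study's average insert was about as long as the shortest loci or longer, and levels per kb were not corrected for fragment length. MSTRG.54976 (PIZI01008208.1, 6587 to 6899, plus strand, 313 bp, alone on its scaffold) reached 1326 normalised counts per kb. Its normalised counts were 414, 358, 458, 399 and 345 with baclofen and 312, 485, 505, 436 and 439 in the controls. The control libraries spanned the whole baclofen range.

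MSTRG.52613 (PIZI01005646.1, 12 to 216, minus strand, 205 bp) and MSTRG.54151 (PIZI01007137.1, 1838 to 2038, minus strand, 201 bp) followed with 954 and 797 per kb, and each was the only locus of its scaffold. MSTRG.52613 had 237, 209, 253, 162 and 98.9 normalised counts with baclofen and 137, 289, 199, 183 and 188 in the controls. MSTRG.54151 had 151, 181, 209, 135 and 130 with baclofen and 145, 226, 144, 148 and 134 in the controls. In both, single libraries differed more from their own group than the groups differed from each other, baclofen 5 being low in the first and control 2 high in the second.

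MSTRG.14537 (PIZI01000020.1, 3906877 to 3907207, minus strand, 331 bp) was the only one of the 6 highest with loci on both sides, 25547 bp from the nearest, and had 474 normalised counts per kb. Its counts were 141, 168, 144, 184 and 146 with baclofen and 210, 150, 136, 150 and 142 in the controls. MSTRG.45313 (PIZI01001006.1, 15707 to 16200, plus strand, 494 bp, 340 per kb), the outermost locus of its scaffold, had 176, 155, 143, 199 and 161 with baclofen and 230, 164, 151, 155 and 145 in the controls. Both were highest in control 1 and next highest in baclofen 4, although they are on different scaffolds. Those are the same libraries in which single-exon loci took the largest share of counts. Of the others among the 6 highest, none was highest in control 1 or baclofen 4. MSTRG.54976 was lowest in control 1, with 312 normalised counts.

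MSTRG.45151 (PIZI01000941.1, 15302 to 17592, plus strand, 2291 bp, alone on its scaffold) was the exception in length among the 6 highest, with 359 normalised counts per kb. It had 833, 872, 743, 794 and 829 normalised counts with baclofen and 874, 788, 931, 780 and 783 in the controls. Its mean of 823 was held with an SD of 0.10 on the log2 scale within groups. None of the 6 passed the threshold between the groups, with log2 fold changes from -0.14 ± 0.12 (SE) for MSTRG.54976 to 0.01 ± 0.17 for MSTRG.54151 and adjusted p-values (DESeq2) of 0.998 or more.

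The most remote locus was MSTRG.14374 (PIZI01000019.1, 14852317 to 14859391, plus strand, 7075 bp), the outermost of its scaffold and 503166 bp from the nearest other locus. It was also an abundant one, with 676, 750, 798, 794 and 897 normalised counts with baclofen and 764, 684, 719, 725 and 646 in the controls. The groups overlapped, and the log2 fold change was 0.15 ± 0.08 (SE, DESeq2 adjusted p = 0.926).

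The next widest gaps belonged to loci of low level. MSTRG.25328 (PIZI01000041.1, 17938 to 22240, minus strand) was 419411 bp from its neighbour with 17.4 normalised counts, MSTRG.22391 (PIZI01000034.1, 5927145 to 5931393, plus strand) 302118 bp with 43.1, and MSTRG.6161 (PIZI01000007.1, 12888470 to 12889729, minus strand) 157187 bp with 29.0. Remoteness and level thus did not go together at these 4 loci.

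An SD of at least 0.6 on the log2 scale within groups was found at 109 of the 705 loci, of which 4 had at least 50 normalised counts. Of these 4 the largest spread was seen at MSTRG.53585 (PIZI01006577.1, 67 to 4710, plus strand, 4644 bp, alone on its scaffold), with an SD of 0.90. It had 50.6, 31.0, 71.0, 162 and 137 normalised counts with baclofen and 186, 106, 119, 62.1 and 45.4 in the controls. High and low libraries occurred in both groups, and the log2 fold change of -0.20 ± 0.54 was smaller than its error.

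At MSTRG.7000 (PIZI01000008.1, 15736467 to 15736827, minus strand, 361 bp, loci on both sides, SD 0.70) the spread came from a few libraries. Its normalised counts were 47.2, 169, 50.3, 52.5 and 48.6 with baclofen and 56.9, 99.9, 176, 77.7 and 76.2 in the controls. Baclofen 2 and control 3 were the high ones, while the other 4 baclofen libraries were below every control. The log2 fold change was -0.40 ± 0.47 (DESeq2, adjusted p = 0.998), and without baclofen 2 it was -0.96 (adjusted p = 0.114).

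MSTRG.51967 (PIZI01005123.1, 21 to 423, plus strand, 403 bp, SD 0.67) and MSTRG.51583 (PIZI01004811.1, 11776 to 12832, minus strand, 1057 bp, SD 0.60) were the other 2 at that level. The first ranged from 40.4 to 121 normalised counts with baclofen and from 32.8 to 118 in the controls. The second ranged from 36 to 91.4 with baclofen and from 38.6 to 112 in the controls. In both the ranges of the groups covered each other almost entirely.

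At similar level, up to 200 normalised counts, the isolated single-exon loci varied between libraries about as much as the other classes. At 10 to 20 normalised counts the median SD within groups was 0.48 on the log2 scale for the isolated single-exon loci, against 0.49, 0.51 and 0.52 in the 3 other classes. At 50 to 100 normalised counts it was 0.26 against 0.25 in each of the others. Above 200 normalised counts the 29 isolated single-exon loci had a higher median of 0.16, and the others 0.13, 0.12 and 0.11. Levels were not equal there, since this bin has no upper limit. The highest mean was 1078 for the isolated single-exon loci and 24928, 20195 and 96423 in the other classes. All these medians are descriptions over loci, which are not independent replicates, and no test was made.

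**Figure D2:**
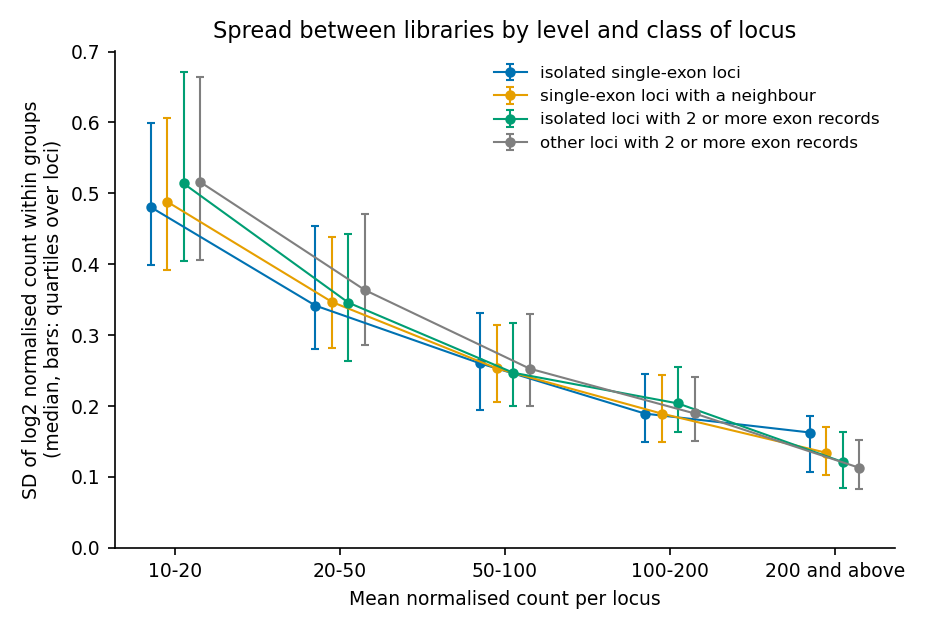
SD of the log2 normalised count within groups (y axis) by bin of mean normalised count (x axis), with points for the median and bars for the quartiles over the loci of each of 4 classes. The medians of the isolated single-exon loci fall from 0.48 in the lowest bin to 0.16 in the highest. They lie close to those of the other classes except in the highest bin, which has no upper limit and where they are above them.

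The spread sets what the comparison of the groups could resolve. The median width of the 95% Wald interval to either side of the log2 fold change was 0.75 at 10 to 20 normalised counts, 0.53 at 20 to 50, 0.36 at 50 to 100, 0.27 at 100 to 200 and 0.20 above. Most of these loci are in the lower bins.

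Baclofen and control libraries were compared at all loci, and no isolated single-exon locus passed an adjusted p of 0.05 (DESeq2). Over all 23794 loci that received an adjusted p, 82 passed, a share of 0.345% (0.269% higher and 0.0756% lower with baclofen). Of the 705 isolated single-exon loci, 500 received one, and the other 205 were below the mean normalised count at which the test filtered (14.35). An unadjusted p under 0.05 was found at 16 of the 500 (3.2%), of which 6 were higher and 10 lower with baclofen, against 5.8% of all tested loci. The quasi-likelihood test of edgeR tested 680 of the isolated single-exon loci, called 0 of them and had 30 at an unadjusted p under 0.05. Over all loci it called 25 of 27244 (0.0918%), with 6.42% at an unadjusted p under 0.05.

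The fold changes were centred on 0. With baclofen 241 of the 500 were higher and 259 lower, and the median log2 fold change was -0.01, as over all tested loci. The middle 90% ran from -0.39 to 0.39, wider than the -0.29 to 0.32 over all tested loci, and the standard errors were larger too, with medians of 0.25 and 0.14. A p that misses the threshold does not show that the levels were the same. For the 183 loci with at least 50 normalised counts, however, the fold changes were confined to -0.43 to 0.36, and the 95% Wald interval stayed within a log2 change of 1 in either direction at 181 and within 0.5 at 126. Over all 705 loci it stayed within 1 at 542.

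**Figure D3:**
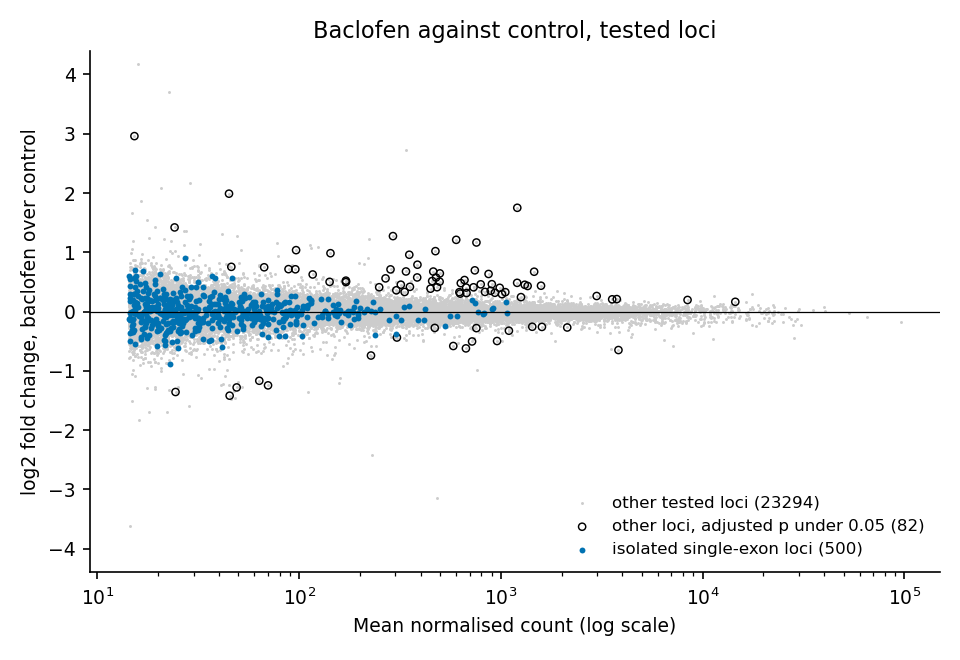
Log2 fold change of baclofen over control (y axis) against the mean normalised count (x axis, log scale) for the 23794 tested loci, with the 500 tested isolated single-exon loci in blue and the 82 loci past an adjusted p of 0.05 as open circles. None of the open circles is an isolated single-exon locus, and the blue points narrow around 0 as the count rises.

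The other classes had few calls as well. Of the single-exon loci with a neighbour 6 of 3757 passed (0.160%), and of the isolated multi-exon loci 6 of 1003 (0.598%). Of the other multi-exon loci 70 of 18534 passed (0.378%), against 0.345% of all tested loci. The calls by position on the scaffold were 0 of 250 alone on a scaffold, 0 of 137 outermost and 0 of 113 with loci on both sides. An unadjusted p under 0.05 (DESeq2) was found at 7 (2.8%), 6 (4.38%) and 3 (2.65%), against 5.8% of all tested loci. Of the nearest neighbours of the isolated single-exon loci, 111 had an adjusted p and 0 passed the threshold. At a share of 0.345% over all tested loci, 0 calls in sets of these sizes say little about them. In the 78 pairs in which both were tested, the log2 fold changes of a locus and its neighbour were close to uncorrelated, with a Pearson correlation of -0.04 and a Spearman correlation of -0.01 across pairs that share the same libraries. The standard errors of the isolated single-exon loci (median 0.25) were large beside the spread of their fold changes. A correlation near 0 therefore does not show that a locus and its neighbour changed independently. None of the 104 loci in the gene lists of the study was among the isolated single-exon loci. These are only 705 of all 57134 loci, so 0 of 104 says little about the class. For the baclofen list it also largely repeats the result that no isolated single-exon locus passed.

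The smallest p in the class was found at MSTRG.17482 (PIZI01000025.1, 7232320 to 7235642, plus strand, 3323 bp), which had loci on both sides, the nearer one, MSTRG.17481, at 7062 bp. Its normalised counts were 193, 166, 235, 209 and 221 with baclofen and 276, 286, 228, 312 and 247 in the controls. The groups overlapped only because baclofen 3 was above control 3. Means were 205 ± 26.6 and 270 ± 32.9 (SD, n = 5 each), the log2 fold change was -0.40 ± 0.12 (SE) and the adjusted p 0.118 (DESeq2) or 0.398 (edgeR). Without control 3 the log2 fold change was -0.45 and the adjusted p 0.0379.

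Next came MSTRG.49260 (PIZI01003076.1, 5553 to 8916, plus strand, 3364 bp), the only locus of its scaffold. Its normalised counts were 311, 229, 257, 279 and 234 with baclofen and 358, 393, 280, 356 and 308 in the controls. Baclofen 1 was in the control range and control 3 just above the next baclofen library. The means were 262 ± 34.0 and 339 ± 44.8 (SD, n = 5 each), with a log2 fold change of -0.37 ± 0.11 (SE) and an adjusted p of 0.160 (DESeq2) or 0.474 (edgeR). Leaving out baclofen 1 gave an adjusted p of 0.0343 at this locus and leaving out control 3 one of 0.0328. In those fits 1 and 2 isolated single-exon loci passed, where 0.453% and 0.533% of all tested loci did. Of the 705, 356 and 269 received an adjusted p there. Without control 1, a fit in which 3.33% of all tested loci passed, 0 isolated single-exon loci did, but only 63 of them, with means of 115 normalised counts or more, received an adjusted p.

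Among loci with at least 50 normalised counts the third of the lower ones by p was MSTRG.50017 (PIZI01003640.1, 7500 to 7827, minus strand, 328 bp), outermost on its scaffold and 6150 bp from the nearest locus. It had 67.4, 103, 81.9, 96.8 and 93.1 normalised counts with baclofen and 118, 111, 140, 114 and 108 in the controls, and the groups did not overlap. Means were 88.4 ± 13.9 and 118 ± 12.6 (SD, n = 5 each). The log2 fold change of -0.41 ± 0.14 (SE) had an adjusted p of 0.395 (DESeq2).

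Of the higher loci at that level, MSTRG.51928 (PIZI01005079.1, 8892 to 12234, plus strand, 3343 bp, outermost, 5940 bp from the nearest) had the smallest p. It had 682, 726, 761, 890 and 805 normalised counts with baclofen and 633, 640, 768, 654 and 672 in the controls. All baclofen libraries were above 4 of the 5 controls, control 3 being the exception. The log2 fold change was 0.20 ± 0.08 (SE, DESeq2 adjusted p = 0.683).

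The longest locus, MSTRG.43040, followed with 1185, 976, 1125, 1090 and 1227 normalised counts with baclofen and 1011, 1018, 1011, 923 and 1077 in the controls. Baclofen 2 was inside the control range and the other 4 above it, and its log2 fold change was 0.15 ± 0.07 (SE, adjusted p = 0.801 by DESeq2). MSTRG.49324 (PIZI01003116.1, 12445 to 17646, plus strand, 5202 bp, alone on its scaffold) had 101, 85.5, 70.0, 87.8 and 84.0 with baclofen and 76.4, 58.7, 75.1, 62.1 and 74.3 in the controls, where again 4 baclofen libraries were above all controls. Its log2 fold change was 0.30 ± 0.16 (SE, DESeq2 adjusted p = 0.869).

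**Figure D4:**
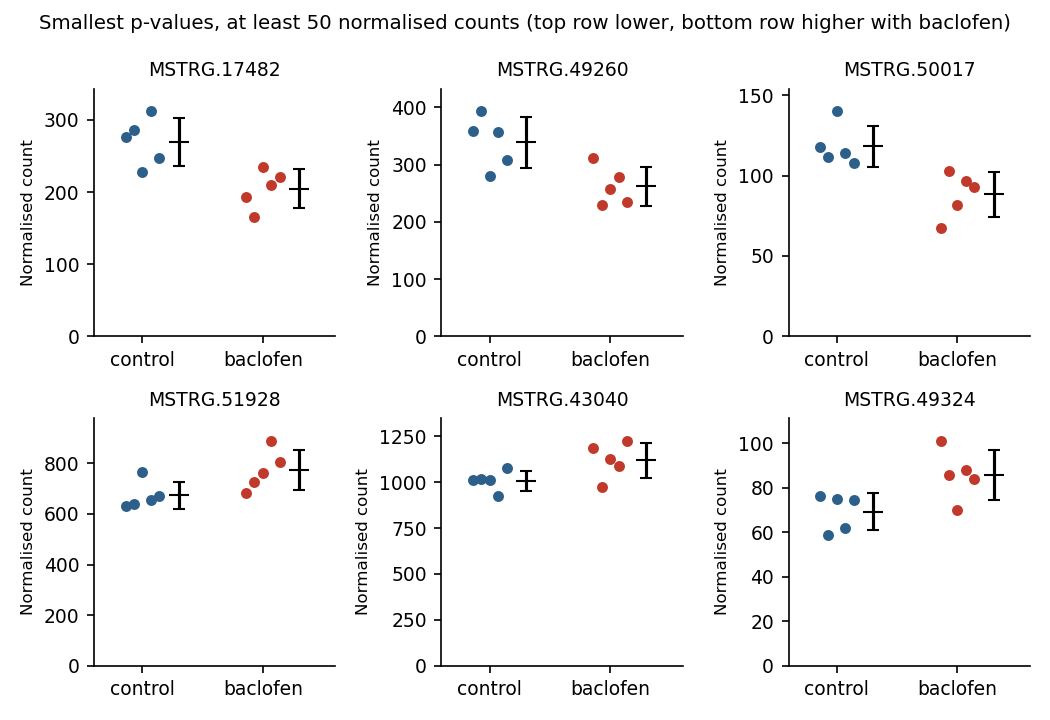
Normalised counts (y axes, linear from 0) in the control and baclofen libraries at the 3 lower and 3 higher isolated single-exon loci with the smallest p-values among those with at least 50 normalised counts, 1 point per library, with the mean and SD of 5 libraries in black. At MSTRG.50017 the baclofen libraries, 67.4 to 103, are all below the controls, 108 to 140, and at the other 5 loci the groups overlap.

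Below 50 normalised counts 2 loci had changes that stood out, and they were picked after their values had been seen. MSTRG.46978 (PIZI01001727.1, 9143 to 10374, minus strand, 1232 bp, outermost) had 34.8, 27.8, 50.3, 28.7 and 35.4 normalised counts with baclofen and 21.2, 29.9, 18.1, 8.28 and 16.4 in the controls. The groups overlapped through control 2, and the log2 fold change of 0.91 ± 0.30 (SE) was the largest of the 500 tested loci in either direction (adjusted p 0.294 by DESeq2).

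MSTRG.51397 (PIZI01004625.1, 11216 to 11708, minus strand, 493 bp, alone on its scaffold) was below the level at which an adjusted p was given, and it was the only one of the 705 with a log2 fold change beyond 1. It had 8.99, 7.49, 2.96, 4.92 and 1.65 normalised counts with baclofen and 5.94, 2.06, 47.9, 17.6 and 22.2 in the controls. Control 3, 4 and 5 were high, while control 1 and 2 were inside the baclofen range. The log2 fold change was -1.89 ± 0.65 (SE). Every library other than control 3, 4 and 5 was below the count minimum, so the locus was included through these controls. The same controls make its fold change large, and its size therefore says little about the class.

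Groups without overlap were seen at 4 of the 500 tested loci (0.8%), 1 higher and 3 lower with baclofen, against 1.25% of all tested loci. Besides MSTRG.50017 these were MSTRG.46166, MSTRG.50702 and MSTRG.49115. MSTRG.46166 (PIZI01001347.1, 3716 to 9354, minus strand, alone on its scaffold) had 70.8, 65.2, 58.2, 46.0 and 58.5 normalised counts with baclofen and 78.1, 77.3, 72.5, 99.4 and 73.3 in the controls. Its log2 fold change was -0.43 ± 0.17 (SE) and its adjusted p 0.58 (DESeq2). MSTRG.50702 (PIZI01004117.1, 8663 to 13998, plus strand, outermost) had 22.7 to 34.8 with baclofen and 36.2 to 48.4 in the controls (log2 fold change -0.50 ± 0.22, adjusted p = 0.756). MSTRG.49115 (PIZI01002998.1, 492 to 2491, plus strand, alone on its scaffold) was the higher one, with 15.7 to 21.4 against 9.32 to 15.4 (0.52 ± 0.32, adjusted p = 0.957). All 3 were named because their groups did not overlap, after their values had been seen.

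The 29 loci above 200 normalised counts were the best measured. They had a median length of 3577 bp, and 10 were alone on a scaffold, 7 outermost and 12 between other loci. With baclofen 14 were higher and 15 lower, with log2 fold changes from -0.40 to 0.20. An unadjusted p under 0.05 (DESeq2) was found at 5 of the 29, nominally a larger share than the 7.75% of all 10505 tested loci at this level (814 loci). The 29 loci are few and were measured in the same libraries, and whether these shares differ was not tested. Over all 500 tested isolated single-exon loci the share was the smaller one, 3.2% against 5.8%. After adjustment 0 of the 29 passed.

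Summed over the class, the share of library counts was small and steady. The isolated single-exon loci took 0.241, 0.247, 0.240, 0.252 and 0.250% of all counts in baclofen 1 to 5 and 0.264, 0.236, 0.239, 0.239 and 0.240% in control 1 to 5. Control 1 was the highest of all, and the other 4 controls were just below the lowest baclofen library. The means were 0.246 ± 0.00545% and 0.244 ± 0.0114% (SD, n = 5 each), a difference of 0.00222 percentage points (two-sided exact permutation test over all arrangements into 5 and 5, p = 0.778).

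Control 1 offset the other controls. Without this library the controls had a mean of 0.239 ± 0.00153% and the difference was 0.00727 percentage points (exact permutation p = 0.0476 over 126 arrangements). This p takes no account of the library having been left out among 10 possible ones. Leaving out control 2 instead brought the difference down to 0.000394 percentage points (exact permutation p = 0.921) and leaving out baclofen 4 to 0.000758 (exact permutation p = 0.929).

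The 3 other measures per library gave no difference beyond the spread. The number of loci with at least 1 count was 704 or 705 in every library (mean 704.8 in each group, exact permutation p = 1). The count minimum was set over these same libraries and left this number little room to vary, so its test could hardly have shown a difference. The median level per kb was 22.3 ± 1.01 with baclofen and 22.0 ± 0.516 in the controls (SD, n = 5 each, exact permutation p = 0.675). The ratio of their counts to those of single-exon loci with a neighbour was 0.0655 ± 0.00106 and 0.0660 ± 0.00105 (SD, n = 5 each, exact permutation p = 0.516). Adjusted over the 4 measures, every p was 1, and the smallest that this design allows is 0.00794 before adjustment.

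The share of the isolated single-exon loci followed that of the other single-exon loci across libraries. The latter took 3.73, 3.80, 3.66, 3.86 and 3.72% of counts in baclofen 1 to 5 and 4.10, 3.59, 3.56, 3.62 and 3.61% in control 1 to 5, so that control 1 was again the highest and baclofen 4 the next. Over the 10 libraries Pearson's r was 0.948 (permutation p = 0.00038, adjusted 0.00114 over 3 relations) and Spearman's rho 0.939 (permutation p = 0.00024, adjusted 0.00072). Without control 1 and baclofen 4, the libraries farthest from the median, r was 0.759 (exact permutation p = 0.0288, n = 8). The permutations ignored the groups, and apart from control 1 the controls were below all baclofen libraries in both shares. Both r values thus include this separation of the groups and do not measure the relation within a group.

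**Figure D5:**
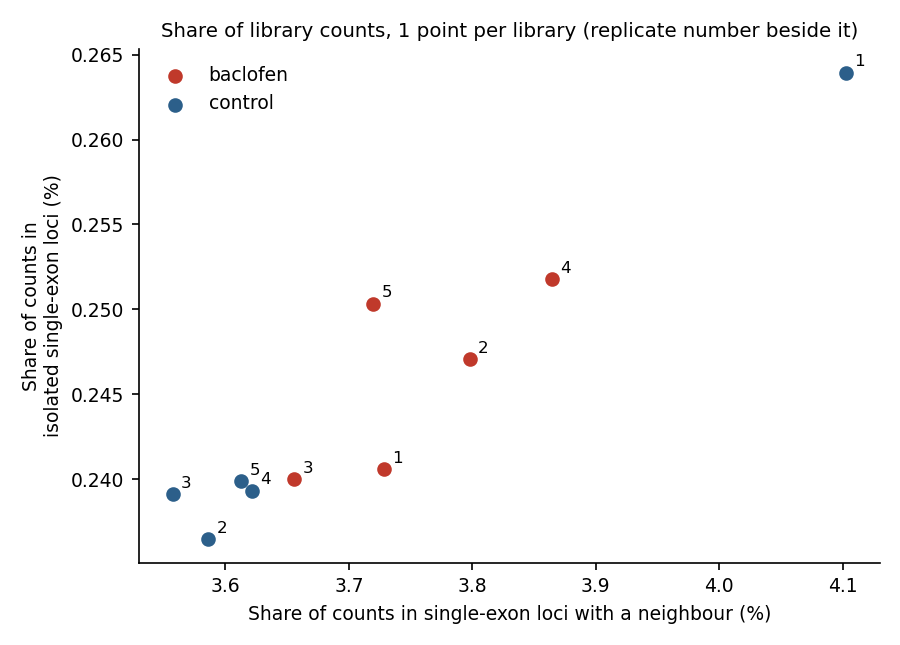
Share of library counts in isolated single-exon loci (y axis, %) against that in single-exon loci with a neighbour (x axis, %), 1 point per library with its replicate number, baclofen in red and control in blue. Control 1 lies at the upper right with 0.264% and 4.10%, and the other 4 controls lie at the lower left, below all baclofen libraries on both axes.

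With the isolated multi-exon loci the relation ran the other way. Their share was 2.70 to 2.80% of counts, with an r of -0.751 (permutation p = 0.00794, adjusted 0.0119) and a rho of -0.806 (permutation p = 0.00666, adjusted 0.00999). Without control 3 and control 4, the farthest from the median, r was -0.732 (exact permutation p = 0.039, n = 8), and without control 1 alone it was -0.661 (exact permutation p = 0.0683, n = 9). With the total count r was 0.594 (permutation p = 0.069) and rho 0.6 (permutation p = 0.0733), and r was 0.566 without the 2 farthest libraries (exact permutation p = 0.148, n = 8). Shares of one library have a common denominator and are not independent of each other, and with 5 libraries per group no correlation was computed within a group.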

How the data were processed

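RNA was measured in 10 pooled brainstem libraries, 5 per group. The authors prepared stranded poly(A) libraries, trimmed paired-end reads with Fastp, aligned them with STAR in 2-pass mode to the germline assembly Pmar_germline 1.0, assembled loci with StringTie from these alignments and counted with featureCounts. The deposited values are raw counts per locus, not normalised, of fragments with both ends mapped, not chimeric and on the library's strand. Tool versions of these steps are not given in the sources used here. Fragments that align to several places are not counted under that counter's defaults, which can lower loci with copies elsewhere.

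In 2 loci a broken line was rejoined. Counts were fitted over all loci with DESeq2 1.42.0 in R 4.3.3 (treatment only, median-of-ratios size factors, Wald test, Cook's cutoff and independent filtering by default, Benjamini-Hochberg, threshold 0.05). Of 51816 loci with counts, 84 were left without a p by Cook's cutoff, and loci under a mean normalised count of 14.35 were filtered. Fold changes are not shrunken, and SDs of log2 counts used a prior of 0.5 counts. Values per library were compared with two-sided exact permutation tests, class medians with exact sign-flip permutation tests over libraries, and correlations with 100000 permutations (scipy 1.17.1). No pair of libraries of a group agreed within sampling noise. The chi-square per locus between 2 libraries was 4.65 to 6.79 for baclofen pairs and 5.24 to 10.4 for pairs of controls other than control 1. For pairs with control 1 it was 11.3 to 21.5.

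The loci described and the lists were chosen with earlier results of these data known. Named were 25 loci: with at least 50 normalised counts, the 3 higher and 3 lower with the smallest p, and the 4 with the largest and 2 with the smallest spread within groups. To these came the 6 highest per kb, the 4 longest and the 4 with the widest gap. The rule also covered loci past the threshold or in the study's gene lists, and there were none. Alternatives were edgeR 4.0.16 with and without its count filter, TMM factors or total counts, a minimum of 10 counts in 5 libraries, no independent filtering, fits without Cook's cutoff, a block for the replicate number, libraries thinned to the smallest total, other limits of distance and count, loci with neighbours on both sides only, and each library left out in turn. The fits were tested on simulated data. No sequence was analysed here.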

Additional observations from a re-analysis of the deposited data

Results flagged for a closer look

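In 58 groups of 5 libraries examined, 9 held a library far from the 4 others by Dixon's criterion (gap over range above 0.71). Chance sets apart about 1 in 20 independent groups, which would come to 2.9 here. The groups examined share libraries, and loci named for their spread or p were chosen on these values. The 9 and the 2.9 can therefore not be compared directly. Control 1 had the highest share of counts in isolated single-exon loci, 0.264% against 0.236 to 0.240% in the other controls, and in the other single-exon loci, 4.103% against 3.56 to 3.62%. It was also the high library at MSTRG.14537, with 209.6 normalised counts against 136 to 150, and at MSTRG.45313, with 230 against 145 to 164. Without it their log2 fold changes were 0.11 and 0.12.

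Control 3 was high at MSTRG.51928 (767.7 normalised counts against 633 to 672 in the other controls) and low at MSTRG.31884 (161.8 against 223 to 242). Without it the log2 fold changes were 0.25 (DESeq2 adjusted p = 0.241) and 0.08. Control 2 was high at MSTRG.54151 (225.7 against 134 to 148) and control 4 at MSTRG.48786 (84.91 against 53.1 to 61.8), and without these libraries the log2 fold changes were 0.17 and 0.22. Baclofen 2 was high at MSTRG.7000, with 169.0 normalised counts against 47.2 to 52.5, and without it the log2 fold change was -0.96 (DESeq2 adjusted p = 0.114).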

How the results depend on the processing

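The count of isolated single-exon loci past the threshold was 0 with edgeR, with TMM factors or total counts, with or without the filters, without Cook's cutoff, and under stricter limits of distance or count (184 to 506 loci). Leaving out single libraries gave 0 to 2, the 2 loci being MSTRG.17482 and MSTRG.49260. Replicate numbers did not pair the libraries: deviations of same-numbered libraries correlated at -0.167 to 0.036, 0 of 5 libraries correlated best with their own number, and with the replicate block 0 loci passed. Without control 1, 426 of 12802 tested loci passed (3.33%), and 0 of the 63 isolated single-exon loci that were tested there.

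Of 32 values for comparisons under the other alternatives, 31 kept their side of the threshold without reversing a direction. The counts of loci past the threshold and the difference in detected loci were 0 in the main fit and had no direction to keep. That difference in detected loci was 0.2 at 10000 bp, 0.2 at 20000 bp and -0.2 for loci with neighbours on both sides. For the ratio to other single-exon loci, all alternatives were chosen after seeing the data. The log2 level against other single-exon loci moved from -0.12 to -0.34 with a minimum of 50 raw counts. The exception was the difference in median level per kb, -0.215 (exact permutation p = 0.722) for loci with neighbours on both sides. Leaving out single libraries, that difference ranged from -0.0894 to 0.485, the difference in share from 0.000394 to 0.00727 percentage points, that in detected loci from -0.2 to 0.2 and that in the ratio from -0.000893 to -0.000147. The log2 level against other single-exon loci ranged from -0.12 to -0.11, against isolated multi-exon loci from -1.11 to -1.09, against other multi-exon loci from -1.53 to -1.52, and between loci on both sides and alone from -0.00249 to 0.0159. The correlation with other single-exon loci ranged from 0.856 to 0.976, with isolated multi-exon loci from -0.895 to -0.661 and with total counts from 0.543 to 0.648.

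Of 450 values for the named loci, 25 changed sign, at 9 loci and all when a library was left out. The log2 fold changes ranged from -0.059 to 0.0101 at MSTRG.13958, -0.0822 to 0.11 at MSTRG.14537, -0.0537 to 0.0122 at MSTRG.45151, -0.0943 to 0.12 at MSTRG.45313, -0.0714 to 0.35 at MSTRG.51967, -0.18 to 0.11 at MSTRG.52613, -0.52 to 0.12 at MSTRG.53585, -0.10 to 0.17 at MSTRG.54151 and -0.0400 to 0.20 at MSTRG.54368. MSTRG.17482 stayed between -0.45 and -0.33 (adjusted p 0.0379 to 0.65) and MSTRG.49260 between -0.44 and -0.32 (0.0328 to 0.821). The cause of these changes was not tested. In the main fit 205 of 705 loci were under the count filter and had no adjusted p. That filter is set from the data, and with single libraries left out 63 to 705 of the loci received one.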

Other observations

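After the values had been seen, short isolated single-exon loci (under 400 bp, n = 29) were set against long ones (1600 bp or more, n = 218), all with at least 20 normalised counts. The median log2 deviation from the locus mean was taken in each library, and the difference of short minus long was 0.05, 0.06, 0.22, -0.13 and -0.28 in baclofen 1 to 5 and -0.20, 0.22, -0.05, -0.00 and 0.03 in control 1 to 5. Baclofen 4, baclofen 5 and control 1, in which the class took its 3 largest shares of counts, had the 3 lowest differences, 2 of them in baclofen libraries. Counts of the long loci enter both the share and the difference, so these are not independent of each other. In single-exon loci with a neighbour (184 short and 1732 long) the same difference ran from -0.10 to 0.16. There too baclofen 5 and control 1 were the lowest, at -0.10 each, while baclofen 4 had 0.02.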
